A study of Mus musculus with 6 samples.

Results

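The table held 46 genes, of 24421, whose symbols begin with Kmt, Kdm, Setd or Prdm followed by a digit. The rule reads the symbol alone, though the families were picked with earlier results of these data known. Most encode enzymes that add methyl groups to lysines of histones (Kmt and Setd) or remove them (Kdm). The Prdm genes encode zinc-finger proteins with a PR domain, a relative of the SET domain, and only some of them methylate histones. By the activity each is best known for, 7 were grouped as H3K4 methyltransferases, 7 as other SET-domain proteins, 6 as H3K4 demethylases, 10 as H3K9 and H3K36 demethylases, 2 as H3K27 demethylases and 14 as PRDM proteins. Enzymes of the same chemistry with other names (Ehmt2, Suv39h2 and the like) are described at the end as surrounding pathway genes.

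RNA-seq had been done on tdTomato-positive β cells sorted from dispersed mouse islets, in 3 control and 3 βDKO samples from mice 7 weeks old on a mixed C57BL/6J; 129SV background. Control mice were MIP-CreERT; Brg1f/+; Brm+/- and βDKO mice were MIP-CreERT; Brg1f/f; Brm-/-, and mice of both groups carried the R26 Cre-activated tdTomato reporter and were given tamoxifen. Brg1 (Smarca4) and Brm (Smarca2) are the alternative ATPases of the Swi/Snf chromatin remodeller. The controls were therefore not wild type: they carried the same Cre, had 1 floxed Brg1 allele and lacked 1 Brm allele. CreERT was driven by the mouse insulin promoter, whereas the Brm alleles were germline, so cells other than β cells lacked Brm too. The labels do not say whether a sample was 1 animal or a pool, so the p-values reflect how far the 3 samples of a group lay apart, part of which may be technical.

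Methylation of histone lysines is read by other proteins, and its meaning depends on the residue. Trimethylated H3K4 marks active promoters and monomethylated H3K4 marks enhancers, while methylated H3K9 and H3K27 mark silent chromatin and methylated H3K36 marks transcribed gene bodies. KMT2 and SETD1 enzymes work in complexes named COMPASS, and LSD1 (Kdm1a) and the JmjC demethylases oppose the methyltransferases. Several of them act at the enhancers where Swi/Snf opens chromatin, and LSD1 and SETD7 have been studied in islet cells.

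The libraries held 25388872 to 31282056 gene reads, recovered from the steps of the deposited TPM values as the smallest whole numbers that fit each gene. Insulin transcripts made up 42.6% to 48.3% of TPM in the controls and 6.37% to 8.93% in the βDKO libraries. TPM is a share of a fixed total, so a fall of so large a share raises the TPM of all other genes. Each gene was therefore tested on 2 scales with limma, log2(TPM + 1) and log2(TPM divided by a median-of-ratios size factor, + 1), the second called rescaled below. Over the 12541 genes that reached 1 TPM in 3 or more libraries, the median log2 difference, βDKO minus control, was 0.80 on TPM and 0.03 after rescaling. "Rose" and "fell" are used below for genes with a Benjamini-Hochberg adjusted p under 0.05 over all 12541 genes on both scales, in the same direction. Whole-gene TPM does not read the deleted exons alone: Smarca4 was at 8.997, 13.5 and 12.4 TPM in the controls and 10.6, 10.5 and 11.4 TPM in the βDKO libraries, a log2 difference of -0.86 (adjusted p = 0.000703) after rescaling and -0.08 (adjusted p = 0.674) on TPM. Smarca2 was at 14.1, 27.5 and 26.6 TPM in the controls and 25.0, 23.2 and 22.4 TPM in the βDKO libraries, with -0.71 (adjusted p = 0.0117) after rescaling and 0.11 (adjusted p = 0.693) on TPM. Fewer cells of a type and less RNA per cell cannot be told apart in such libraries. All 8 β-cell markers read passed the filter, and 6 fell. Summed TPM of 12 immune markers was 121.4 to 214.1 in the controls and 8.75 to 14.5 in the βDKO libraries, and 4 of the 5 that passed the filter fell; Cd3e was listed at 0 in the controls. Summed TPM of 4 cell-cycle markers was 9.11 to 16.0 and 1.15 to 1.81, and 4 of 4 fell. Alpha-cell markers summed to 2344 to 5046 TPM in the controls and 551.0 to 843.4 in the βDKO libraries, PP and epsilon markers to 1592 to 4019 and 607.7 to 890.7, and ductal markers to 250.03 to 360.2 and 197.6 to 204.2. Delta-cell markers summed to 2520 to 5002 and 1968 to 2541, and of the 3 that passed the filter 1 fell and 1 rose. Endothelial markers summed to 5.85 to 11.3 and 24.0 to 28.8, but 4 of 6 were under 1 TPM in all libraries. The 1 that passed the filter rose. Schwann cell markers summed to 9.16 to 12.0 and 12.2 to 15.5, and 1 of the 2 that passed the filter rose. All these sums are on TPM, which the fall of insulin raises for other genes. Acinar markers summed to 535.2, 61.4 and 18.9 TPM in controls 1, 2 and 3 and to 17.5 to 134.3 in the βDKO libraries. Their part in the results below was not tested.

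Control 1 stood apart in transcripts of great length. After rescaling, its median difference from the mean of controls 2 and 3 ran from 0.21 (log2) for genes with up to 2000 exonic bases to -0.35 for the 690 genes above 12000. The 11 members above 12000 bases, Kmt2a, Kmt2c and Kmt2d among them, had a median of -0.49. Control 1 was the lowest control for 31 of the 38 members tested and for 36.8% of all genes. Rescaled values of single members without that library are given beside those it moved by over 1.5 times. On TPM, the differences of Kmt2c, Kmt2d, Kmt2e, Kdm2a and Kdm4b were 0.77, 0.86, 0.63, 0.44 and 0.25 without it, and each was still called. The mean difference between βDKO and control itself had a Spearman rho with length of 0.06 across 12407 genes with a length and 0.32 across the 38 members. Without control 1 these were -0.01 and 0.23. These correlations are across genes of the same libraries and are given as a description.

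**Figure D1:**
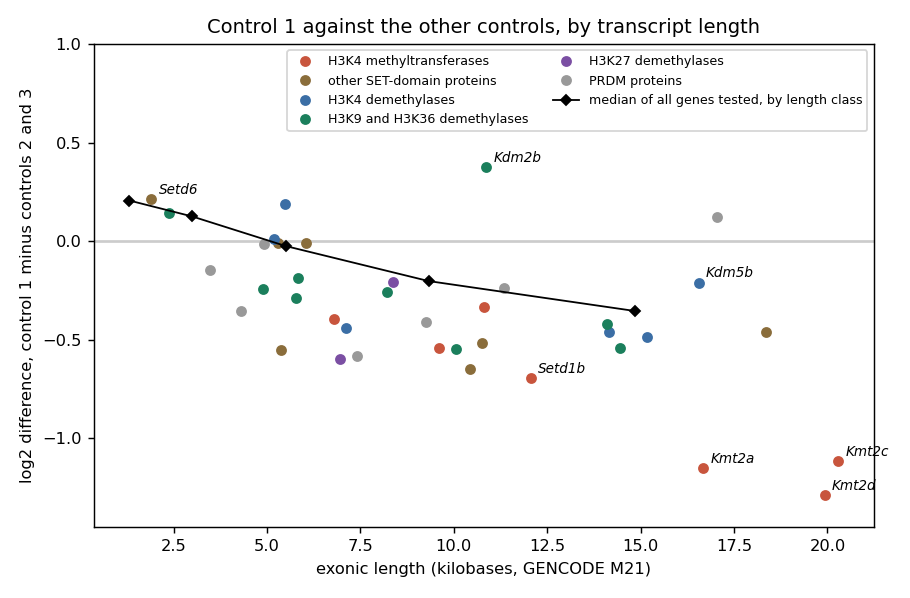
Rescaled log2 difference between control 1 and the mean of controls 2 and 3 (y axis) against exonic length in kilobases (x axis). Points are the 38 members, coloured by class, and the black line joins medians of all genes tested by length class, which fall to -0.35 at the long end; Kmt2a, Kmt2c and Kmt2d lie lowest.

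Of the 46 genes, 38 passed the filter. The other 8, among them Kdm4d, Prdm1, Prdm8, Prdm12, Prdm13, Prdm14 and Prdm16, did not, and these 7 are described from their reads or TPM. Among the 38, 1 (Prdm6) passed only through the βDKO libraries, so it had to differ between the groups and its call is no result. On TPM, 35 of 38 were higher in βDKO, beside 76.0% of all genes tested, and none was lower, beside 6.04%. The other 3 (Kdm2b, Kdm7a and Setd8) were not called on that scale. After rescaling 12 were higher, beside 22.4% of all genes, and 4 were lower, beside 21.2%. The 12 were also higher on TPM, so 12 rose, with the same background of 22.4%: Kmt2a, Setd1a, Setd1b, Setd7, Setd4, Kdm5b, Kdm5d, Kdm3a, Kdm3b, Kdm6a, Prdm6 and Prdm9. All 2811 genes higher after rescaling were also higher on TPM. The TPM scale thus removed no gene in this direction and adds no second support to these calls. No member fell on both scales, against 6.04% of all genes. Of the 12, 7 rose at least 1.5-fold after rescaling (Kmt2a, Setd1a, Setd1b, Setd4, Kdm5b, Prdm6 and Prdm9), beside 15.7% of all genes. Over genes that reached 1 TPM in both groups, which leaves Prdm6 out, 11 of 37 members rose, beside 21.1%, and 6 rose at least 1.5-fold, beside 14.1%. The median log2 difference over the 38 members was 1.05 on TPM and 0.35 after rescaling, beside 0.80 and 0.03 over all genes. Without control 1 (same size factors), the rescaled median of the 11 members above 12000 bases went from 0.51 to 0.36. That of the 10 from 8000 to 12000 bases went from 0.38 to 0.22. That of the 14 from 4000 to 8000 bases went from 0.12 to -0.03. In shorter classes, the 1 member up to 2000 bases went from -0.18 to -0.11, and the median of 2 members stayed at 0.46. For all genes above 12000 bases it went from 0.22 to 0.08. The shares of all genes called are also the background of the counts by class below. The 4 members lower after rescaling were Kdm1a, Kdm2b, Kdm4b and Setd8. Kdm1a and Kdm4b were called in opposite directions, higher on TPM and lower once rescaled, as were 5.08% of all genes, so their direction depends on the scale.

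Kdm5b, Kmt2a, Setd1a, Setd1b and Setd7 kept their call under every alternative tried, and Prdm9 under every left-out library. Without control 1 the same 12 rose. Without βDKO 1 or without βDKO 2, only 6 did: Kdm3a, Kdm3b, Kdm5d, Kdm6a and Setd4 then had rescaled adjusted p-values between 0.0619 and 0.11, and Prdm6 no longer passed the filter. Without βDKO 3, Kdm5d and Setd4 lost their calls (rescaled adjusted p = 0.0675 and 0.0769) and Prdm6 was again not tested.

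**Figure D2:**
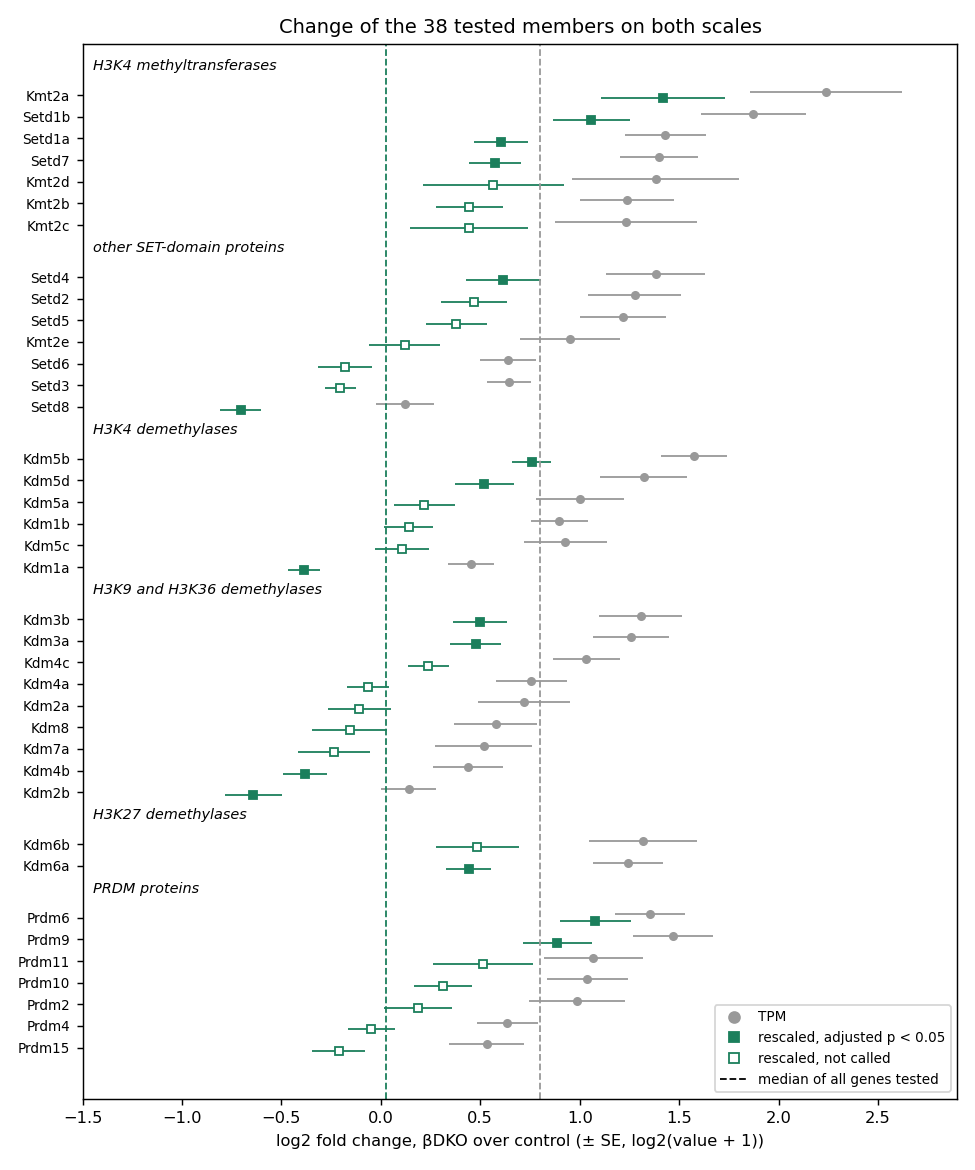
Log2 difference (βDKO minus control) of the 38 members tested, with bars of ± SE from limma, on TPM (grey) and after rescaling (green, filled where called), grouped by activity; dashed lines mark the medians of all genes tested. All points on the TPM scale lie right of 0; after rescaling 12 are called higher, 4 lower, and Kmt2a has the highest value at 1.42.

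Of the 7 H3K4 methyltransferases, 4 rose (Kmt2a, Setd1a, Setd1b and Setd7), and the class had a median rescaled log2 difference of 0.57. Their summed rescaled level was 104.6, 186.7 and 174.3 in the controls and 280.7, 245.8 and 261.6 in the βDKO libraries. Every βDKO library was above every control. Kmt2a (MLL1, chr9:44803355-44881296, minus strand, mm10), which places H3K4 trimethylation at promoters of developmental genes together with menin, was at 8.17, 22.6 and 25.2 TPM in the controls and 91.9, 74.7 and 83.8 TPM in the βDKO libraries. The groups did not overlap, and control 1 was well below the other controls. Kmt2a went from 18.6 ± 9.16 to 83.4 ± 8.62 TPM (SD, n = 3 per group), 4.47-fold. Rescaled, its level was 12.7, 28.0 and 31.1 in the controls and 66.5, 55.7 and 62.7 in the βDKO libraries, 2.58-fold between means. The log2 difference was 1.42 (SE 0.31, adjusted p = 0.0109) after rescaling and 2.24 (SE 0.38, adjusted p = 0.00135) on TPM. Its recovered reads numbered 2247, 4496 and 6109 in the controls and 16162, 12797 and 14156 in the βDKO libraries, so counting error was small beside the spread between controls. Without control 1 the rescaled difference was 1.04 (adjusted p = 5.94e-04), and with the length trend removed from each library it was 1.21 (adjusted p = 0.00298).

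Setd1a and Setd1b are the alternative catalytic subunits of the complexes that make most H3K4 trimethylation in the cell. Setd1b (chr5:123142193-123168629, plus strand) was at 8.67, 16.9 and 19.5 TPM in the controls and 58.8, 51.9 and 54.3 TPM in the βDKO libraries. Rescaled values were 13.5, 20.9 and 24.1 in the controls and 42.6, 38.7 and 40.6 in the βDKO libraries, a 2.08-fold rise without overlap. The log2 difference was 1.06 (SE 0.19, adjusted p = 0.00388) after rescaling and 1.87 (SE 0.26, adjusted p = 0.000412) on TPM, and 0.83 after rescaling without control 1. Setd1a (chr7:127776670-127800122, plus strand) was at 15.0, 27.3 and 23.1 TPM in the controls and 63.4, 56.6 and 56.6 TPM in the βDKO libraries. It also rose without overlap, by 1.52-fold after rescaling, with a log2 difference of 0.61 (SE 0.14, adjusted p = 0.00946) after rescaling and 1.43 (SE 0.20, adjusted p = 0.000448) on TPM. Setd7 (chr3:51515319-51560879, minus strand), a monomethyltransferase of H3K4 and of many other proteins, was at 15.9, 28.1 and 23.1 TPM in the controls and 64.1, 55.3 and 58.8 TPM in the βDKO libraries. Its rescaled rise was 1.49-fold, with a log2 difference of 0.57 (SE 0.13, adjusted p = 0.00989). On TPM the difference was 1.40 (SE 0.20, adjusted p = 0.000401). The opposite-strand gene 5031434O11Rik overlaps Setd7, and the strand used in counting is not given in the sources used here. Reads in that overlap cannot be told apart. Other members carry the same limit: Kdm1b overlaps Dek and Kmt2e overlaps Srpk2. Kmt2a, Setd1a and Setd4 overlap genes not listed in the deposited values, 1 of which (Gm49388) is on the same strand as Setd1a.

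The other KMT2 genes did not pass after rescaling. Kmt2b (MLL2), the closest relative of Kmt2a, was at 6.21, 12.9 and 10.7 TPM in the controls and 24.8, 22.9 and 24.0 TPM in the βDKO libraries, with 0.44 (SE 0.17, adjusted p = 0.0664) after rescaling and 1.24 (SE 0.24, adjusted p = 0.00172) on TPM. Without control 1 its rescaled difference was 0.27 (adjusted p = 0.0829), and without control 2 it was 0.60 (adjusted p = 0.0228). Kmt2c (MLL3) and Kmt2d (MLL4) monomethylate H3K4 at enhancers. Kmt2c was at 4.79, 13.6 and 14.4 TPM in the controls and 28.1, 22.6 and 23.5 TPM in the βDKO libraries, and Kmt2d at 8.45, 29.4 and 25.1 TPM in the controls and 56.6, 45.4 and 48.6 TPM in the βDKO libraries. In both, control 1 was far below the other controls, and the lowest βDKO library was above the highest control on TPM. Their rescaled differences were 0.44 (SE 0.30, adjusted p = 0.269) for Kmt2c and 0.56 (SE 0.35, adjusted p = 0.241) for Kmt2d. Without control 1 these were 0.07 and 0.14. On TPM Kmt2c had 1.23 (adjusted p = 0.0132) and Kmt2d 1.38 (adjusted p = 0.0181), and the latter call was lost without βDKO 1 (adjusted p = 0.0585). Kmt2e (MLL5), whose SET domain has no well established histone activity, had 0.12 (adjusted p = 0.624) after rescaling and -0.10 (adjusted p = 0.38) without control 1.

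**Figure D3:**
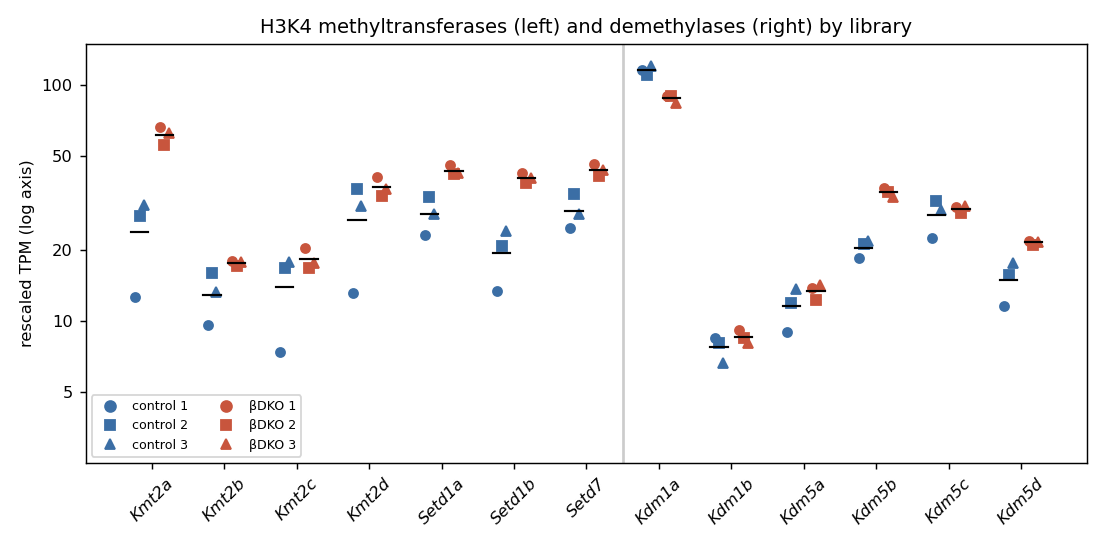
Level of each H3K4 methyltransferase and demethylase in every library, on a log axis, after rescaling (TPM divided by the size factor). Blue symbols are controls, red symbols βDKO libraries and bars group means; the groups separate upward in Kmt2a, Kmt2b, Setd1a, Setd1b, Setd7, Kdm5b and Kdm5d and downward in Kdm1a, and control 1 is far below the other controls in Kmt2a, Kmt2c and Kmt2d.

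The 250 bases before the start are shown for the 6 H3K4 methyltransferases and demethylases that were called after rescaling and have exactly 1 start in the RefSeq promoter table (GRCm38.p6). They set promoters of the methyltransferases that rose beside those of the demethylases, which moved in both directions. The RefSeq start of Setd1a lies inside the GENCODE M21 span given above, so its 250 bases fall within that span. Those of Setd7, Kmt2a and Kdm5b overlap the span of their gene in part. Each is written 5′ to 3′ on the gene's strand, with CpG dinucleotides in capitals.
Kmt2a (chr9:44881290-44881539, minus strand, 29 CpG): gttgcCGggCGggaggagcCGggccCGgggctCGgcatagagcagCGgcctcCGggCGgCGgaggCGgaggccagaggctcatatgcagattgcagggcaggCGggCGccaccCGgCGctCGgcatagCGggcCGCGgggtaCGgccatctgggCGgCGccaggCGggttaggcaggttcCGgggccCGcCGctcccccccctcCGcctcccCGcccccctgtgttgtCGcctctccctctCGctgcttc
Setd1a (chr7:127777139-127777388, plus strand, 25 CpG): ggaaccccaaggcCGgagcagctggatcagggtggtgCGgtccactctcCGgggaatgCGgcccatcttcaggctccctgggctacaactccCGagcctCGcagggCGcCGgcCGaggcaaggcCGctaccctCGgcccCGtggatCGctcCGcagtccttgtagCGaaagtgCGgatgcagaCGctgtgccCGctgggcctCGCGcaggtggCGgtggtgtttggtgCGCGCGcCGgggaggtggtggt
Setd7 (chr3:51560824-51561073, minus strand, 17 CpG): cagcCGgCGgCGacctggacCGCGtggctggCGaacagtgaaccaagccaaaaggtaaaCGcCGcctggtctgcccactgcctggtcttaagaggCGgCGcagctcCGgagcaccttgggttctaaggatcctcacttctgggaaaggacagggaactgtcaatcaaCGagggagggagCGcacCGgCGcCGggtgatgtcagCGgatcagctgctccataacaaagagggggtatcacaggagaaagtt
Kdm5b (chr1:134559928-134560177, plus strand, 13 CpG): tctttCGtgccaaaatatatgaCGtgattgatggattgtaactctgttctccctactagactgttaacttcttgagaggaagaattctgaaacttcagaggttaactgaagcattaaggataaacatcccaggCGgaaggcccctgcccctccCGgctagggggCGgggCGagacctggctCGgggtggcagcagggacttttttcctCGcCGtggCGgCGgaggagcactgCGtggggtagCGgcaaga
Kdm5d (chrY:897538-897787, plus strand, 13 CpG): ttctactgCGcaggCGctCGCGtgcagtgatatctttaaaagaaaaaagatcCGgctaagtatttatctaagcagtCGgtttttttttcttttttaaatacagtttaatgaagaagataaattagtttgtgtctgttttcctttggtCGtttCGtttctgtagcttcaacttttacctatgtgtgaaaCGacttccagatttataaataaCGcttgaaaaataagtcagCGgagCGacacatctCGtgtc
Kdm1a (chr4:136602724-136602973, minus strand, 21 CpG): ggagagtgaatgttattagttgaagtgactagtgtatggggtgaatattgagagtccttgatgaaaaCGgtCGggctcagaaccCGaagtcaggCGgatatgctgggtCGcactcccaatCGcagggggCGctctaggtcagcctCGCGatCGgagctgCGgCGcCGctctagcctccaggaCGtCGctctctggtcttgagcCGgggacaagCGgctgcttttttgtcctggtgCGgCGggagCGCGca

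As many CpG as in Kmt2a were held by 6.78% of the 32851 promoters in that table, as many as in Setd1a by 10.7%, as in Kdm1a by 16.3%, as in Setd7 by 23.5%, and as in Kdm5b and Kdm5d by 31.5%. Promoters matched 34 of the 46 members, 47 in all, with a median of 19 CpG and a range from 0 to 56, beside a median of 6 over the whole table. The letters TATAAA were found on the gene's strand in 2.13% of the member promoters and 7.59% of all, among those shown in Kdm5d. The letters CCGGAA, on either strand, were found in 21.3% and 12.0%, among those shown in Kmt2a. A match is a description of the letters and not a bound site.

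The H3K4 demethylases moved in different ways. All 6 were higher on TPM, but after rescaling 2 rose (Kdm5b and Kdm5d), 1 was lower (Kdm1a) and 3 passed neither way, with a median of 0.18. Kdm5b (chr1:134560171-134635285, plus strand), which removes methyl groups from trimethylated H3K4, was at 11.9, 17.2 and 17.7 TPM in the controls and 51.0, 47.4 and 45.2 TPM in the βDKO libraries. The groups did not overlap, and control 1 was below the other controls. Rescaled values were 18.5, 21.2 and 21.8 in the controls and 36.9, 35.3 and 33.8 in the βDKO libraries, 1.72-fold. The log2 difference was 0.76 (SE 0.10, adjusted p = 0.000758) after rescaling and 1.58 (SE 0.17, adjusted p = 0.000113) on TPM. Kdm1a (LSD1, chr4:136550540-136602723, minus strand), which removes mono- and dimethylation within the CoREST complex, had the second highest mean TPM of the members in the controls. It was at 74.8, 89.1 and 98.1 TPM in the controls and 124.3, 121.0 and 113.1 TPM in the βDKO libraries. Every βDKO library was above every control on TPM. Rescaled, the order turned: 116.3, 110.3 and 121.2 in the controls and 90.0, 90.3 and 84.6 in the βDKO libraries, 1.31-fold lower in βDKO. The differences were -0.39 (SE 0.08, adjusted p = 0.00649) after rescaling and 0.46 (SE 0.12, adjusted p = 0.00698) on TPM. Kdm1b (LSD2) had 0.14 (adjusted p = 0.4) and Kdm5a 0.22 (adjusted p = 0.289) after rescaling, and without control 1 Kdm5a was at 0.07 (adjusted p = 0.649).

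Members on the sex chromosomes come as X and Y relatives. Kdm5c on the X (chrX:152233020-152274535, plus strand) was at 14.5, 26.1 and 24.0 TPM in the controls and 42.0, 38.6 and 41.3 TPM in the βDKO libraries, a log2 difference of 0.93 (SE 0.21, adjusted p = 0.00401). Rescaled, its groups overlapped, with 0.11 (SE 0.14, adjusted p = 0.563), and -0.0396 without control 1. Kdm5d, its Y-linked counterpart (chrY:897788-956786, plus strand), was at 7.45, 12.7 and 14.2 TPM in the controls and 30.2, 28.3 and 29.1 TPM in the βDKO libraries. Rescaled values were 11.6, 15.8 and 17.6 in the controls and 21.9, 21.1 and 21.8 in the βDKO libraries, 1.44-fold without overlap, with 0.52 (SE 0.15, adjusted p = 0.0255). The ratio of Kdm5c to Kdm5d within a library was 1.94, 2.05 and 1.69 in the controls and 1.39, 1.36 and 1.42 in the βDKO libraries. It was lower in every βDKO library than in any control. Y-linked genes were present in all 6 libraries and Xist was at most 0.0337 TPM, so the groups did not differ in carrying a Y chromosome. Of other Y-linked genes, Eif2s3y had a rescaled difference of 0.61 (adjusted p = 0.00298), Ddx3y 0.08 (adjusted p = 0.653) and Uty 0.02 (adjusted p = 0.936), so they did not all move with Kdm5d. Reads that match both Kdm5c and Kdm5d could have been left out or given to the wrong gene in the authors' counting, which makes their ratio less certain.

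The H3K27 demethylases are Kdm6a and Kdm6b, and Kdm6a is also a partner of Kmt2c and Kmt2d. Kdm6a (chrX:18162575-18279936, plus strand) was at 8.68, 11.6 and 14.0 TPM in the controls and 29.4, 28.2 and 26.3 TPM in the βDKO libraries. Rescaled values were 13.5, 14.3 and 17.3 in the controls and 21.3, 21.1 and 19.7 in the βDKO libraries. The groups did not overlap, and Kdm6a rose by 1.38-fold, with 0.44 (SE 0.11, adjusted p = 0.0172) after rescaling and 1.24 (SE 0.18, adjusted p = 0.000429) on TPM. Without control 2 its rescaled adjusted p was 0.0515. Kdm6b, induced by inflammatory and differentiation signals in many cells, was at 21.6, 45.8 and 37.6 TPM in the controls and 99.1, 91.6 and 67.4 TPM in the βDKO libraries. Its spread was wide in both groups, with 0.49 (SE 0.21, adjusted p = 0.0961) after rescaling and 1.32 (SE 0.27, adjusted p = 0.00265) on TPM. Without control 1 the rescaled difference was 0.29 (adjusted p = 0.221), and without control 2 it was 0.65 (adjusted p = 0.0459).

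The H3K9 and H3K36 demethylases had no common direction. Of 9 tested, 7 were higher on TPM. After rescaling 2 rose (Kdm3a and Kdm3b), 2 were lower (Kdm2b and Kdm4b) and the median was -0.11. Kdm3a, which removes H3K9 mono- and dimethylation, was at 5.65, 8.19 and 9.11 TPM in the controls and 21.9, 19.2 and 17.3 TPM in the βDKO libraries, with 0.48 (SE 0.13, adjusted p = 0.0193) after rescaling, 1.43-fold. Its relative Kdm3b was at 9.19, 15.8 and 15.7 TPM in the controls and 37.0, 33.4 and 32.1 TPM in the βDKO libraries, with 0.50 (SE 0.13, adjusted p = 0.0206), 1.42-fold. Both relatives separated the groups on both scales. Kdm2b (chr5:122870665-122989823, minus strand), which binds unmethylated CpG islands and brings a Polycomb complex there, was at 10.7, 10.7 and 9.84 TPM in the controls and 12.7, 12.0 and 10.2 TPM in the βDKO libraries. On TPM the groups overlapped, with 0.14 (SE 0.14, adjusted p = 0.367). Rescaled, its level was 16.7, 13.2 and 12.2 in the controls and 9.20, 8.93 and 7.61 in the βDKO libraries, 1.63-fold lower in βDKO, with -0.64 (SE 0.14, adjusted p = 0.00909). It overlaps Rnf34 and A930024E05Rik on the other strand. Kdm4b, which removes methyl groups from H3K9 and H3K36, was at 16.5, 23.1 and 26.5 TPM in the controls and 29.3, 28.8 and 30.8 TPM in the βDKO libraries. Rescaled it was 1.32-fold lower, with -0.38 (SE 0.11, adjusted p = 0.0256), against 0.44 (SE 0.18, adjusted p = 0.0477) on TPM. With any 1 library other than control 1 left out, at least 1 of these calls was lost, with rescaled adjusted p up to 0.103 and TPM adjusted p up to 0.119. The rescaled differences were -0.11 (adjusted p = 0.612) for Kdm2a, -0.07 (adjusted p = 0.653) for Kdm4a, 0.24 (adjusted p = 0.0999) for Kdm4c, -0.23 (adjusted p = 0.328) for Kdm7a and -0.16 (adjusted p = 0.535) for Kdm8. Without control 1 that of Kdm2a was -0.29 (adjusted p = 0.0372), that of Kdm7a -0.42 (adjusted p = 0.041) and that of Kdm4a -0.16 (adjusted p = 0.132).

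Among the other SET-domain proteins, 1 of 7 rose (Setd4), 1 was lower after rescaling (Setd8), and the median rescaled difference was 0.12. That median is the value of Kmt2e, and without control 1 it was again that of Kmt2e, at -0.10. The sign of the class median therefore depends on control 1. Setd4 (chr16:93583457-93604063, minus strand) was at 3.83, 6.43 and 8.61 TPM in the controls and 19.5, 15.7 and 16.8 TPM in the βDKO libraries. Rescaled values were 5.96, 7.96 and 10.6 in the controls and 14.1, 11.7 and 12.6 in the βDKO libraries, 1.56-fold, with 0.62 (SE 0.19, adjusted p = 0.0326) after rescaling and 1.38 (SE 0.25, adjusted p = 0.0013) on TPM. The rescaled groups did not overlap, yet the call was lost without any 1 βDKO library (adjusted p 0.0619 to 0.11) and without control 2 (0.0782). Setd8 (now named Kmt5a, chr5:124439930-124462308, plus strand), the H4K20 monomethyltransferase whose level peaks at mitosis, was at 28.0, 36.1 and 34.7 TPM in the controls and 36.8, 31.5 and 39.3 TPM in the βDKO libraries. On TPM the groups overlapped, with 0.12 (SE 0.14, adjusted p = 0.448). Rescaled values were 43.5, 44.7 and 42.9 in the controls and 26.6, 23.5 and 29.4 in the βDKO libraries, 1.65-fold lower in βDKO, with -0.71 (SE 0.10, adjusted p = 0.00128). The 4 cell-cycle markers given above fell in the same libraries, and their part in the level of Setd8 was not tested. Setd3, which methylates a histidine of actin rather than a histone, had the highest TPM of all members in the controls, at 98.6, 124.6 and 125.4 TPM in the controls and 179.8, 187.8 and 175.2 TPM in the βDKO libraries. Its rescaled difference was -0.20 (adjusted p = 0.0666), with every βDKO library below every control. Setd2, which trimethylates H3K36, had 0.47 (adjusted p = 0.0538), Setd5 0.38 (adjusted p = 0.0789) and Setd6 -0.18 (adjusted p = 0.31) after rescaling. Setd2 was at 0.30 without control 1 (adjusted p = 0.0748) and at 0.59 without control 2 (adjusted p = 0.0353). Setd5 was at 0.23 without control 1 (adjusted p = 0.139) and at 0.50 without control 3 (adjusted p = 0.0325), and Setd6 at -0.11 without control 1.

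The PRDM proteins were mostly at low levels: 7 of 14 passed the filter, Prdm9 rose, and Prdm6 was called only after passing through the βDKO libraries. Prdm9 (chr17:15543079-15564354, minus strand) trimethylates H3K4 at sites of meiotic recombination and is known from germ cells. It was at 0.743, 1.27 and 1.59 TPM in the controls and 5.94, 4.35 and 4.81 TPM in the βDKO libraries. Recovered reads numbered 43, 53 and 81 in the controls and 220, 157 and 171 in the βDKO libraries. Every βDKO library exceeded every control, by 2.38-fold between rescaled means, with 0.89 (SE 0.17, adjusted p = 0.00538) after rescaling and 1.47 (SE 0.20, adjusted p = 0.000363) on TPM. Prdm6, a repressor known from smooth muscle, was at 0, 0 and 0.182 TPM in the controls and 2.08, 1.73 and 1.35 TPM in the βDKO libraries. Its reads numbered 0, 0 and 7 in the controls and 58, 47 and 36 in the βDKO libraries. Control 1 and control 2 held none, and the fitted rescaled log2 difference of 1.08 depends on the pseudocount of 1. The rescaled differences were 0.51 (adjusted p = 0.138) for Prdm11, 0.31 (adjusted p = 0.119) for Prdm10, 0.18 (adjusted p = 0.415) for Prdm2, -0.05 (adjusted p = 0.763) for Prdm4 and -0.21 (adjusted p = 0.239) for Prdm15. Without control 1 those of Prdm10 and Prdm2 were 0.18 and -0.00851.

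Of the 8 members under the filter, 3 (Prdm1, Prdm14 and Kdm4d) had TPM that did not overlap between the groups, 1 higher and 2 lower in βDKO. Among all genes above 0 and under the filter, 13.7% were higher without overlap and 11.4% lower. In a fit of all 17807 genes above 0, 12 of 46 members were higher on both scales, beside 15.5% of those genes, and 1 was lower on both, beside 5.98%. Prdm1 (Blimp-1), a repressor of plasma cells and T cells, was the latter, at 0.701, 0.651 and 0.924 TPM in the controls and 0.359, 0.203 and 0.299 TPM in the βDKO libraries. Reads numbered 61, 41 and 71 in the controls and 20, 11 and 16 in the βDKO libraries. Controls were all above the βDKO libraries, with a log2 difference of -0.45 (adjusted p = 0.00664) on TPM and -0.73 (adjusted p = 0.00296) after rescaling in that fit. The immune markers given above fell in the same libraries, and their part in the level of Prdm1 was not tested. Prdm14, a pluripotency and germ cell factor, was at 0.484, 0.0638 and 0.313 TPM in the controls and 0, 0 and 0 TPM in the βDKO libraries. It had 35 reads over the controls and 0 over the βDKO libraries. Pooled over each group, this put its TPM at least 8.41-fold lower in βDKO at a floor of 3 reads over the group. That bound covers counting error only, not the spread between samples. Control 1 held 21 of the 35 reads and control 2 only 2. In the unfiltered fit the log2 difference was -0.35 (adjusted p = 0.0387) on TPM and -0.46 (adjusted p = 0.0822) after rescaling. Kdm4d, a relative of Kdm4a, was at 0.112, 0.124 and 0.127 TPM in the controls and 0.808, 0.541 and 0.585 TPM in the βDKO libraries. Reads numbered 5, 4 and 5 in the controls and 23, 15 and 16 in the βDKO libraries, and the unfiltered log2 difference was 0.55 (adjusted p = 0.00146) on TPM and 0.34 (adjusted p = 0.0116) after rescaling. Prdm16, known from brown fat, was between 0.0485 and 0.135 TPM in all 6 libraries. Prdm12 had 0 to 2 reads in a library. Prdm13 was above 0 only in control 1 and Prdm8 only in βDKO 1.

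**Figure D4:**
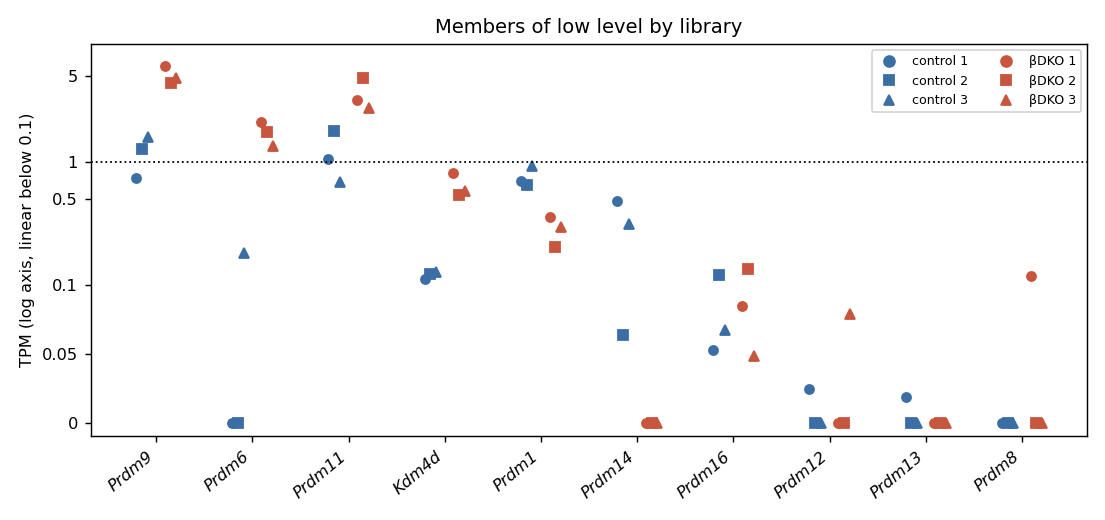
TPM of 10 members of low level in each library, on an axis that is logarithmic above 0.1 and linear below, with the 1 TPM filter dotted. Prdm9 and Prdm6 lie higher in the βDKO libraries, Prdm1 and Prdm14 lie higher in the controls, and Prdm14 is listed at 0 in all 3 βDKO libraries.

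Ratios between relatives within a library do not depend on the scale. Of 24 pairs of close relatives compared, 14 (58.3%) had ratios that did not overlap between the groups. Over every pair of tested genes above 0 in all libraries the share was 59.9%, and several of the 24 share a member, so the count says nothing particular about these relatives and the ratios are given as a description. With 3 libraries against 3 the exact two-sided permutation test cannot go below 0.1, the value of each of these 14, so no pair passes after adjustment over the 24. Kmt2a over Kmt2c was 1.71, 1.66 and 1.74 in the controls and 3.27, 3.30 and 3.56 in the βDKO libraries, a log2 difference of 0.98. This pair shares its great length, and control 1 did not stand apart in it. Kmt2a over Kmt2d was 0.967, 0.769 and 1.004 in the controls and 1.62, 1.65 and 1.72 in the βDKO libraries. Kmt2a over Kmt2b was 1.32, 1.75 and 2.34 in the controls and 3.70, 3.26 and 3.50 in the βDKO libraries. Relative to Kmt2b, Kmt2c and Kmt2d, Kmt2a was higher in every βDKO library than in any control. Kmt2c over Kmt2d, the enhancer pair, was 0.566, 0.462 and 0.576 in the controls and 0.497, 0.499 and 0.484 in the βDKO libraries, and its groups overlapped. Setd1a over Setd1b was 1.73, 1.61 and 1.18 in the controls and 1.08, 1.09 and 1.04 in the βDKO libraries. All 3 βDKO ratios were near 1 and below every control. Kdm5b over Kdm5c was 0.821, 0.658 and 0.736 in the controls and 1.21, 1.23 and 1.09 in the βDKO libraries. Kdm5b was the lower of that pair in every control and the higher in every βDKO library. Kdm4b over Kdm4c was 2.12, 1.96 and 2.45 in the controls and 1.33, 1.41 and 1.40 in the βDKO libraries, lower in every βDKO library. Kdm3a over Kdm3b was 0.615, 0.519 and 0.581 in the controls and 0.593, 0.576 and 0.538 in the βDKO libraries, and Kdm6a over Kdm6b was 0.402, 0.252 and 0.373 in the controls and 0.297, 0.308 and 0.390 in the βDKO libraries, both with overlap.

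**Figure D5:**
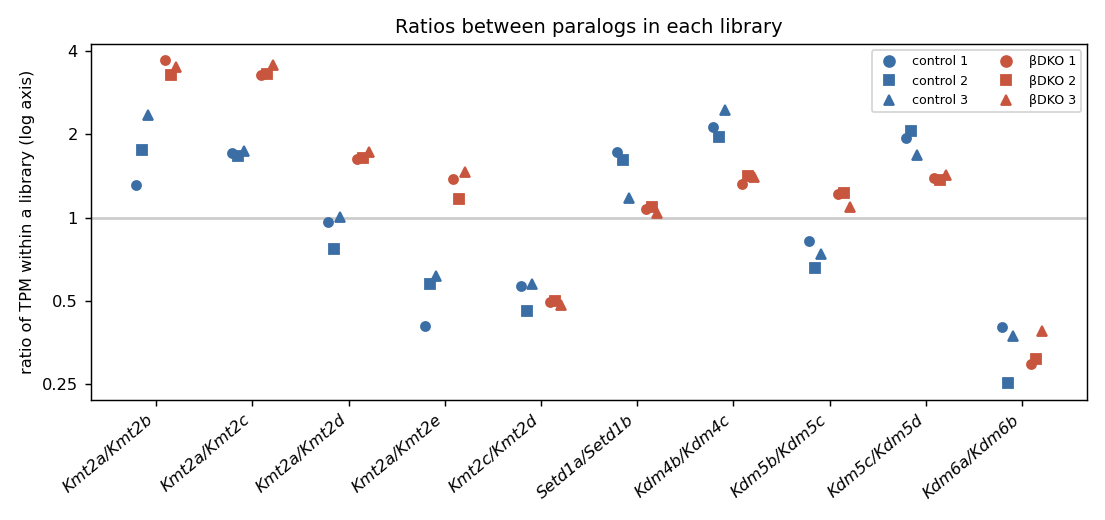
Ratio of TPM between pairs of relatives within each library, on a log axis, for controls and βDKO libraries. The ratios of Kmt2a to its relatives are higher in all βDKO libraries, such as Kmt2a over Kmt2c at 3.27 to 3.56 against 1.66 to 1.74, and Kmt2c over Kmt2d overlaps between groups.

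Over all members tested, 34 of 38 had every βDKO library above every control on TPM, beside 78.2% of all genes. After rescaling this held for 17, beside 30.5%, and the reverse held for 5 (the 4 called lower and Setd3), beside 27.2%.

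Surrounding genes of the pathway were read from lists, with counts over those that passed the filter and medians of the rescaled log2 difference. The shares of all genes called, given above for the members, are the background here too. Of 18 genes listed as COMPASS and MLL cofactors 15 were higher on TPM, 5 rose and 4 were lower after rescaling only, with a median of 0.12. Psip1 (LEDGF), a tether of KMT2A, had 0.70 (adjusted p = 0.000876), and menin (Men1), the cofactor that joins KMT2A to it, was lower after rescaling with -0.61 (adjusted p = 0.00493) and 0.19 (adjusted p = 0.179) on TPM. Paxip1, a subunit of the Kmt2c and Kmt2d complexes, had -0.79 (adjusted p = 0.000961) after rescaling and 0.04 (adjusted p = 0.823) on TPM. Ing2, a reader of H3K4 trimethylation, had -0.98 (adjusted p = 0.000584) and -0.16 (adjusted p = 0.33). It is counted in the list but is not a COMPASS subunit. The 6 partners of Kmt2c and Kmt2d and H3K27 acetyltransferases share genes with that list and include Kdm6a, already counted among the members. Of these 6, 4 rose: among them were Kdm6a, Ncoa6 at 0.52 (adjusted p = 0.0332) and Ep300 at 0.65 (adjusted p = 0.0351). Control 1 was low for Ep300 as for Kmt2d, at 10.6, 24.0 and 20.8 TPM in the controls and 56.8, 48.8 and 45.4 TPM in the βDKO libraries.

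Of 12 partners of LSD1 and CoREST, 6 rose and none was lower, with a median of 0.37, while Kdm1a itself was lower after rescaling. Insm1, an endocrine zinc-finger factor that recruits LSD1 complexes, was at 183.8, 225.3 and 159.9 TPM in the controls and 717.6, 724.7 and 617.8 TPM in the βDKO libraries. It had no overlap between groups and a rescaled difference of 1.01 (SE 0.16, adjusted p = 0.00177). Zmym3, a CoREST-associated zinc-finger protein, was at 4.17, 7.58 and 7.32 TPM in the controls and 32.4, 31.4 and 26.5 TPM in the βDKO libraries, with 1.33 (SE 0.15, adjusted p = 0.000439). Zmym2 had 0.60 (adjusted p = 0.00316).

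Of 20 other lysine methyltransferases tested, 19 were higher on TPM, 4 rose and none was lower, with a median of 0.23. Ehmt2 (G9a), which dimethylates H3K9, had 0.42 (adjusted p = 0.011), Suv39h2, which trimethylates it, 0.58 (adjusted p = 0.0235), Setmar 0.69 (adjusted p = 0.00736) and Smyd2 0.44 (adjusted p = 0.028). Among 12 other JmjC proteins 1 rose, Jarid2, a Polycomb partner, with 0.52 (adjusted p = 0.0322), and the median was 0.12. Among 10 readers of H3K9 methylation and their partners 3 rose, with a median of 0.28 over the list. They were Cbx5 (HP1α) with 0.70 (adjusted p = 0.00195), Cdyl2 with 0.81 (adjusted p = 0.00548) and Trim28 with 0.32 (adjusted p = 0.0125). Trim28 is a partner of HP1 and not itself a reader. Methyl donor and 2-oxoglutarate metabolism supply the cofactors of these enzymes. Of 16 genes listed under it, not all of them enzymes of these pathways, 3 rose, 2 fell and 1 more was lower after rescaling, with a median of -0.05. Mthfd1, an enzyme of the folate cycle, was at 67.3, 87.0 and 82.1 TPM in the controls and 50.4, 49.5 and 49.3 TPM in the βDKO libraries. It fell on both scales, by 0.64 on TPM and 1.48 after rescaling (log2, adjusted p = 0.00136 and 1.05e-05). Idh2, the mitochondrial NADP-dependent isocitrate dehydrogenase that makes 2-oxoglutarate, fell as well, with -0.27 (adjusted p = 0.0379) on TPM and -1.12 (adjusted p = 4.05e-05) after rescaling. Methionine synthase (Mtr) rose, with 0.75 (adjusted p = 0.00253). Ahcyl1, the 1 lower after rescaling only, had -0.89 (adjusted p = 0.000179) after rescaling and -0.04 (adjusted p = 0.74) on TPM. It is a relative of the methyl-cycle enzyme Ahcy and is not known to share its activity.

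Levels of different genes are comparable only as far as the lengths behind TPM are right. The lengths implied by TPM and reads ran from 0.131 (Prdm11) to 4.35 (Prdm16) times the exonic length in GENCODE M21. The order of genes by TPM is therefore approximate. When 1 gene is compared between libraries, its own length cancels. The TPM total still depends on the lengths used for other genes, insulin among them, so differences on TPM carry that limit. Rescaling removes a factor shared by all genes of a library.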

How the data were processed

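Gene-level TPM of 6 libraries (3 control, 3 βDKO) were deposited by the authors as 1 table. The submitters' processing notes name FastQC, Trimmomatic, HISAT2, HTSeq, DESeq2 and mm10 without versions. No source used here gives the lengths behind TPM or the strand setting. Each column summed to 1000000 TPM. For all 16625 rows above 0 in 2 or more libraries, the values were whole multiples of a step per gene and library (tolerance 0.01), which gave relative read numbers, up to a common factor per gene, and intervals on them would cover counting error only. Of 24421 rows, 6614 were 0 in all libraries and 27 names had turned into dates; the latter are not used here. Values of 1 member and 1 surrounding gene are not reported here.

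The 12541 genes that reached 1 TPM in 3 or more libraries were tested with limma 3.58.1 (R 4.3.3; trend and robust; two-sided; group only) on log2(TPM + 1) and on log2(TPM / median-of-ratios size factor + 1), with Benjamini-Hochberg adjustment over all of them at 0.05. Fold changes on these scales understate those of low genes. Fits were also run on simulated data, drawn from control means with the same spread beyond counting error for every gene. Their outcome is not given here, and no result above rests on it. No simulated library was set apart by transcript length as control 1 was, so that feature was not tested. Positions and exonic lengths are GENCODE M21 on mm10, and promoters RefSeq on GRCm38.p6. The members and the gene lists were chosen with earlier results of these data known, so no list is independent evidence. Values in every library were to be given for members called alike on both scales with at least 1.5-fold after rescaling and for X- and Y-linked members; other members given in full were chosen after their values were seen. For the other surrounding genes, up to 4 per list were named by adjusted p after rescaling, and Men1, Ep300 and the Y-linked genes were added after their values were seen. Alternatives changed the filter, pseudocount, scaling, model, replicate block and each library in turn. Removal of the length trend was added after seeing the data.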

Additional observations from a re-analysis of the deposited data

How the results depend on the processing

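Members higher after rescaling, and on both scales, numbered 6 to 13 when 1 library was left out (12 with all) and 6 when βDKO 1 and βDKO 2 were averaged. These were the closest pair, with an SD of log2 differences of 0.219, against 0.337 to 0.536 in other pairs of 1 group. All genes higher after rescaling numbered 1620 to 2944 and 1684 in the same settings. All genes lower on TPM numbered 504 to 702 without 1 library and 480 at a filter of 5 TPM, against 757. Members lower after rescaling (4) numbered 3 to 6 without 1 library and 7 with the length trend removed. Members higher on TPM and lower after rescaling (2) numbered 1 to 3 without 1 library, 1 with no filter, with no trend in limma and with βDKO 1 and βDKO 2 averaged, and 5 with the length trend removed. With no filter, 2 members were lower on TPM and 1 on both scales; fewer genes pass a stricter filter, and other causes were not tested.

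The rescaled differences that turned with 1 library left out ranged from -0.0396 to 0.21 (Kdm5c), -0.10 to 0.23 (Kmt2e) and -0.00851 to 0.28 (Prdm2), lowest without control 1. They ranged from -0.29 to 0.0158 in Kdm2a, positive without control 3, and from -0.27 to 0.0346 in Kdm8, positive without βDKO 3. The cause was not tested. Over all single-gene values and alternatives, 1168 kept their direction and side of the threshold, 47 lost and 18 gained a call, and 5 turned. Scaling without hormone transcripts left 9 members higher, and voom on recovered reads and upper-quartile scaling gave 14 each.

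With the replicate number as a block, 13 members were higher after rescaling (Setd5 was added) and 2532 genes of all. Deviations of same-numbered libraries correlated at 0.01, -0.02 and 0.19, so the numbers were not taken to pair them. A gene with as few reads as Prdm12 cannot show a difference at this depth.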
